A study of Homo sapiens with 18 samples.

Results

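The A3B KO DRIP–seq libraries taken after 6 h and after 2 h of PMA were compared; they are 2 of the 18 samples of the series and were chosen by their labels alone. Both come from MCF10A, a nontumorigenic breast epithelial line, grown with EGF, insulin, hydrocortisone and cholera toxin. The A3B KO line is 1 derivative of the WT line, made with a guide RNA that cuts in both APOBEC3A and A3B and leaves an APOBEC3A/A3B fusion in place of both genes; the cells were put through single-cell cloning. PMA was given at 25 ng/ml for 2 h or 6 h, and DMSO was the vehicle. S9.6 immunoprecipitations of sonicated DNA were pooled into 1 library per condition, and each was called against its own input. The DMSO library of the same KO clone and the 3 matching WT libraries served as outside values. No list from RNase H-treated DNA was used here, and in bulk cells fewer hybrids per cell and fewer cells with a hybrid cannot be told apart. With 1 library per condition there is no replicate check, so differences are described by size, with no test, and counting intervals (95% Wilson) cover counting error alone.

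R-loops are structures in which nascent RNA pairs with its template DNA and the other DNA strand is left unpaired; they form mostly where transcription is active, often just downstream of a start where the RNA is rich in G. The S9.6 antibody binds DNA:RNA hybrids, and DRIP–seq maps the DNA that it brings down. PMA mimics diacylglycerol and activates protein kinase C, which switches on MAPK and NF-κB signalling and, within minutes, the immediate early genes; most of these are shut off again within hours, while secondary response genes follow.

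The lists give 500 bp regions centred on summits, each with its fold enrichment (summit over local background) and its pileup (fragments at the summit). The A3B KO list held 120428 regions at 2 h and 169126 at 6 h, with a median pileup of 22 and 30 fragments and a median fold enrichment of 5.01 and 4.64. Reads per library are unknown, and list length and fold enrichment can both move with depth. Promoters were therefore ranked inside each list. The value of a gene was the highest fold enrichment among summits within 2 kb of its start, taken as its most 5′ annotated start. The change was log2 of its rank at 2 h over its rank at 6 h, above 0 where it ranked higher at 6 h. A change of at least 2-fold in rank was counted as a call. The labels were checked at the targeted locus: between APOBEC3A and A3B the 3 KO lists held 0 regions each and the WT lists 4 with DMSO, 4 at 2 h and 8 at 6 h. Of 14 basal epithelial markers, 7 had a promoter region at both times in A3B KO, LAMB3 and KRT6A among them. So did 3 of 10 luminal, 3 of 8 mesenchymal and 1 of 4 blood cell markers, against 5848 of all 19962 protein-coding genes.

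The sequences under 8 summits that carry the comparison are given first, as hg38 positions on the sense strand of each gene, 150 bases around the summit, with runs of at least 3 G in capitals. 4 are 2 h summits of genes that ranked much lower at 6 h: HBEGF (chr5:140346147-140346296, minus strand, intron), EGR1 (chr5:138465981-138466130, plus strand, coding exon), PIM1 (chr6:37170894-37171043, plus strand, intron) and JUNB (chr19:12792108-12792257, plus strand, coding exon).
HBEGF: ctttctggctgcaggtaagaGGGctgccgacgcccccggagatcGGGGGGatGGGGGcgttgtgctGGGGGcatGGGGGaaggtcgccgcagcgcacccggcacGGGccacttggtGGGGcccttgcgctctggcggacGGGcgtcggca
EGR1: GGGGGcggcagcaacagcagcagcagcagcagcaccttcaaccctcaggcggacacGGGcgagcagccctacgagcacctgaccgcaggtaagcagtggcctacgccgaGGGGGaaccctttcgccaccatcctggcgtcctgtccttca
PIM1: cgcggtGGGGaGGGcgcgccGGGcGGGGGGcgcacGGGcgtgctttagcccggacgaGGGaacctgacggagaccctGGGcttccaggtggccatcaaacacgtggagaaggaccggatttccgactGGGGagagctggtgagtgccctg
JUNB: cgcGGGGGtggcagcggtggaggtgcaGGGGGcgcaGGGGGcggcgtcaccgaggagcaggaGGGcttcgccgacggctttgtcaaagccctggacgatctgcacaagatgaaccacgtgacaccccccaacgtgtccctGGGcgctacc

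The other 4 are 6 h summits of genes that ranked much higher at 6 h: DKK1 (chr10:52314623-52314772, plus strand, noncoding exon of a transcript), CCND1 (chr11:69641711-69641860, plus strand, intron), TSR1 (chr17:2335943-2336092, minus strand, intron) and RPL7A (chr9:133349975-133350124, plus strand, coding exon).
DKK1: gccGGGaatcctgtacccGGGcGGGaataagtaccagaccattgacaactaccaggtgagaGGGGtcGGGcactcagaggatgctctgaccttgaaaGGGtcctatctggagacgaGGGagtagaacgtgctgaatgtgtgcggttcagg
CCND1: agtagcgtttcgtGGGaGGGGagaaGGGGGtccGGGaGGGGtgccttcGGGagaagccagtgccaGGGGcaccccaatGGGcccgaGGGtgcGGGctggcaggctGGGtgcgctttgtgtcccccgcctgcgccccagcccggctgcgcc
TSR1: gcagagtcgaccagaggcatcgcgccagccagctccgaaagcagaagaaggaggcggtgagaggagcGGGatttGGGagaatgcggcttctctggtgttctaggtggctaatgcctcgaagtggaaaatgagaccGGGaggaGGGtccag
RPL7A: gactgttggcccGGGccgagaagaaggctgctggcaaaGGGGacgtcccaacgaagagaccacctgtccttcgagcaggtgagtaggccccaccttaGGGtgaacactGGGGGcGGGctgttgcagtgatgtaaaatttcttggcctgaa

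All 8 windows held at least 3 runs of G on the sense strand, from 3 in EGR1 to 11 in CCND1, and runs of 3 C were fewer in 7 of them (0 in TSR1 to 5 in CCND1), EGR1 holding 3 of each. G took 30.7% of the bases in EGR1 and 45.3% in HBEGF, and G and C together 56.7% in DKK1 and 73.3% in HBEGF and CCND1. The early and the late windows overlapped in each of these measures.

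The promoter of HBEGF, a membrane-anchored EGF receptor ligand released by shedding, moved furthest among the strongest promoters. Its fold enrichment in A3B KO was 4.57 with DMSO, 62.5 at 2 h and 6.51 at 6 h, and its rank among the 5848 promoters with a region at both times went from 12 to 1966 (log2 −7.36). The summits of both times lay 21 bp apart in the gene, 382 and 361 bp from the start, so the same site was read. EGR1, a zinc finger immediate early transcription factor, had a fold enrichment of 4.32, 49.4 and 8.57 at the same 3 times and moved from rank 23 to 921 (log2 −5.32). In WT the HBEGF promoter went the same way, from a fold of 50.7 at 2 h to 6.43 at 6 h (log2 −7.38), as did EGR1, from 17.5 to 6.89 (log2 −4.23). For both genes the 6 h value stood nearer to the DMSO value than to the 2 h value in either line.

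**Figure D1:**
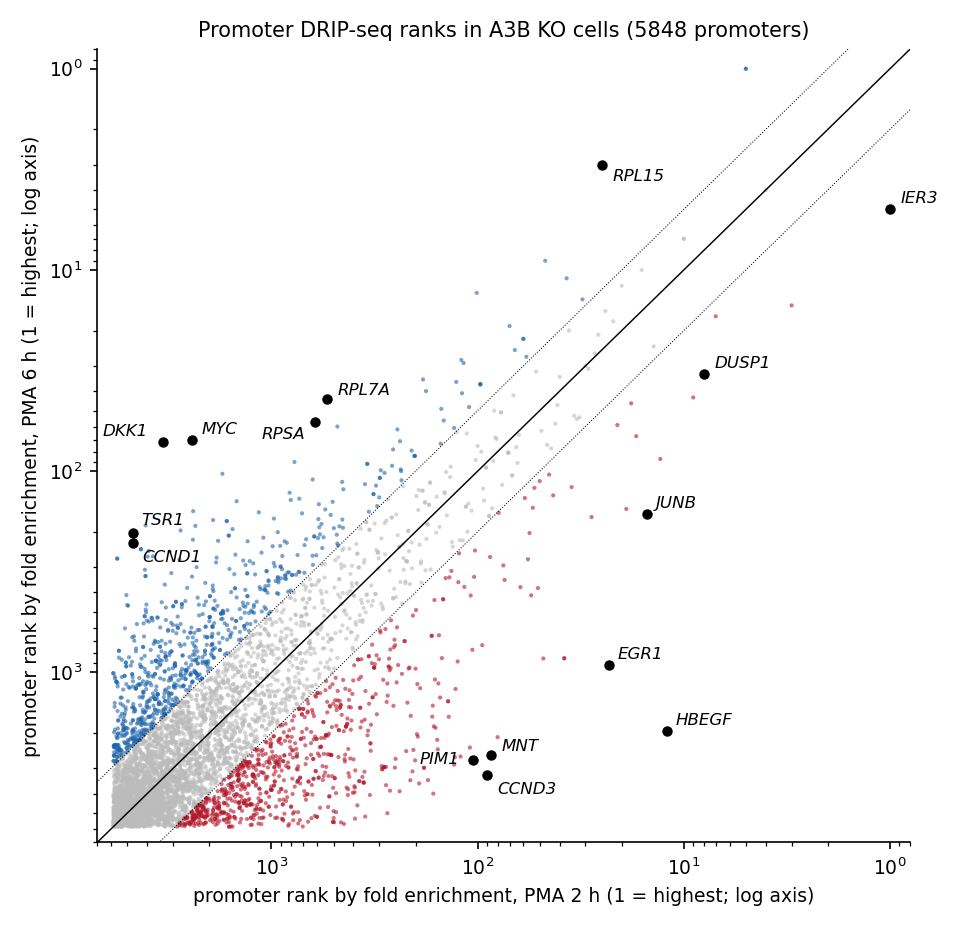
Promoter rank by fold enrichment in A3B KO at PMA 2 h (horizontal) and 6 h (vertical), 1 point per promoter for 5848 promoters on log axes with rank 1 at the upper right. Red points ranked at least 2-fold lower at 6 h and blue points at least 2-fold higher (dotted lines); HBEGF and EGR1 lie far below the diagonal and DKK1 and MYC far above it.

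Of the 5848 ranked promoters, 813 (13.9%) were at least 2-fold lower in rank at 6 h and 817 (14%) at least 2-fold higher. The near equality of both counts follows from ranking the same genes in both lists. Spearman's correlation between the ranks at both times was 0.60 across genes, which share a library and are not independent. Beside these, 1429 promoters had a region at 2 h alone and 1790 at 6 h alone. The median distance between the 2 h and the 6 h summit of a promoter was 40 bp, and in 4366 promoters it was at most 250 bp. Of the 100 promoters that ranked highest at 2 h, 64 were still among the highest 100 at 6 h and 38 ranked at least 2-fold lower.

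The DMSO and WT lists played no part in the calls. Among promoters with a region at all 3 times in A3B KO, the 715 lower-ranked at 6 h had a median rank of 2046 with DMSO, 800 at 2 h and 2749 at 6 h. The 719 higher-ranked at 6 h had a median rank of 1296 with DMSO, 2641 at 2 h and 791 at 6 h. The middle and last of each triple are fixed by the call; the DMSO value is not, and in both sets it lay between them, on the side of the 6 h value. In the WT pair of libraries, 752 (14.2%) of 5288 ranked promoters were at least 2-fold higher at 6 h and 737 (13.9%) at least 2-fold lower. Of 711 promoters called lower in A3B KO and ranked in WT, 491 were lower in WT as well, against 2171 of all 4366 promoters ranked in both pairs. Of 675 called higher in A3B KO, 443 were higher in WT, against 2191 of the 4366. Across those 4366 genes Pearson's r between the KO and the WT log2 rank ratios was 0.41 and Spearman's correlation 0.29.

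CCND3, MNT and PIM1 were among the next largest losses. CCND3, which encodes cyclin D3, went from a fold of 26.8 at 2 h to 5.07 at 6 h (rank 90 to 3230, log2 −5.17; WT −7.37). Its A3B KO summits lay 1881 and 1860 bp from the start, in a noncoding exon of a transcript, and CCND3 was not ranked within 1 kb. MNT, a repressor of the MAX network, went from 27.1 to 5.77 (log2 −4.91; WT −4.26). PIM1, a serine/threonine kinase gene, went from 24.6 to 5.63 (log2 −4.69; WT −5.84). With DMSO these 3 promoters had a fold of 3.78, 4.17 and 4.49, so all 3 stood apart at 2 h alone.

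CD9, a tetraspanin gene, went from a fold of 22.4 to 5.45 (log2 −4.47; WT −5.38). CD44, the hyaluronan receptor gene, went from 24.1 to 6.03 (log2 −4.44; WT −2.27) and RAPH1, an actin regulator gene, from 23.4 to 5.74 (log2 −4.44; WT −3.66). ITPR3, an inositol trisphosphate receptor gene, was the exception among these: its fold went from 18.9 to 4.34 in A3B KO (log2 −4.61, and −1.34 within 1 kb of the start) but from 4.59 to 5.67 in WT (log2 0.22). The WT library at 2 h was thus low at ITPR3, where the KO library was high.

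The largest gain was at DKK1, a secreted Wnt antagonist, whose fold enrichment was 10.5 with DMSO, 5.36 at 2 h and 23.3 at 6 h (rank 3350 to 72, log2 5.54; WT 4.28). MYC, the growth-promoting transcription factor gene, had 29.7, 6.43 and 23.6 at these times (rank 2440 to 70, log2 5.12; WT 6.38). CCND1, which encodes cyclin D1, had 10.1, 4.10 and 13.8 (rank 4669 to 228, log2 4.36), with 2 h and 6 h summits 388 bp apart, and WT had no region within 2 kb of its start at 2 h but a region of fold 13 at 6 h. At all 3 promoters the 2 h value was the lowest of the 3 times. CCND3 and CCND1, which encode partners of the same kinases, thus stood at opposite ends of the ranking within 2 kb of the start. CCND3 could not be set beside CCND1 within 1 kb, where it was not ranked.

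TSR1, a ribosome maturation factor gene that shares its summit with SGSM2, had a fold of 17.7 with DMSO, 4.05 at 2 h and 14.4 at 6 h (log2 4.53; WT 1.41), and its 2 h and 6 h summits lay 397 bp apart. ANXA3, an annexin gene, had 6.33, 4.66 and 14.8 (log2 4.46), with no WT region at 2 h and a region of fold 9.90 at 6 h. THBS1, the thrombospondin 1 gene, had 9.02, 4.79 and 13.2 (log2 3.98), again with no WT region at 2 h; its 2 h and 6 h summits lay 678 bp apart, and within 1 kb of the start its log2 was 0.97. NAXE, an NAD(P)HX epimerase gene, had 22.9, 6.49 and 16 (log2 3.92; WT 2.46). Of these 4, ANXA3 and THBS1 stood above their DMSO value at 6 h and TSR1 and NAXE below it.

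**Figure D2:**
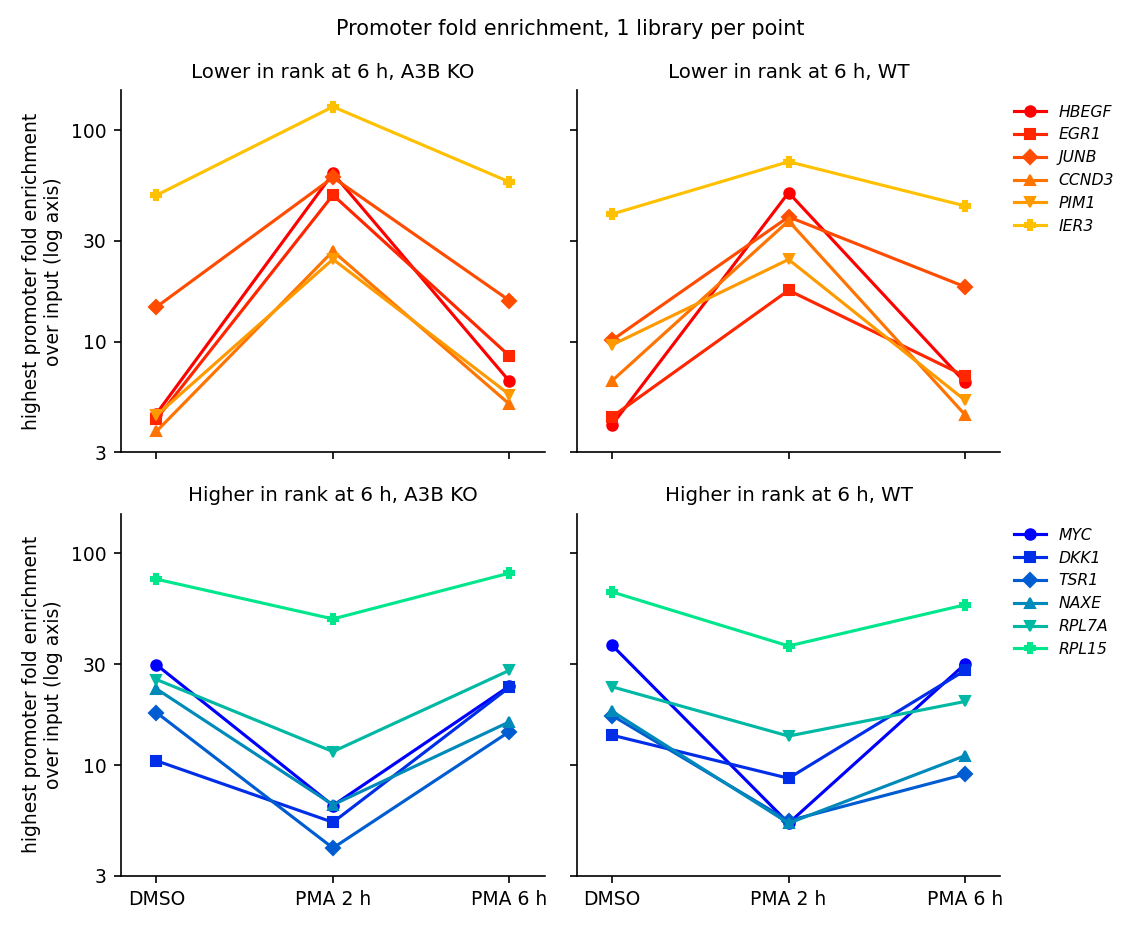
Highest promoter fold enrichment over input (log axis) with DMSO and after PMA for 2 h and 6 h, 1 library per point, in A3B KO (left) and WT (right). The 6 upper genes peak at 2 h and the 6 lower genes dip at 2 h in both lines; HBEGF reaches 62.5 in A3B KO and 50.7 in WT.

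Genes of the AP-1 family, the FOS, JUN and MAF proteins that pair to bind TPA-responsive elements, went both ways. Of 12 genes, 9 were ranked at both times, 5 of them lower at 6 h, each by at least 2-fold, and 4 higher, none by 2-fold, with a median log2 of −1.04 against 0.01 over all ranked promoters. For the calls in this and each other gene list, the shares over all ranked promoters were 13.9% lower and 14% higher. JUNB had a fold of 14.6 with DMSO, 59.8 at 2 h and 15.7 at 6 h (rank 15 to 163, log2 −3.44; WT −2.57). FOS had 8.14, 33.9 and 12.8 (log2 −2.27; WT −2.55). FOSL1 had 7.18, 23.1 and 11.9 (log2 −1.52; WT −2.65). At all 3 the 6 h value stood between the DMSO and the 2 h values.

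The 4 higher ones were FOSL2, with a fold of 10.8 at 2 h and 11.5 at 6 h (log2 0.72; WT −1.18), JUN (log2 0.35; WT −1.0), JUND (log2 0.44; WT −1.48) and FOSB (log2 0.09). Ranked by pileup, FOSL2 was lower at 6 h (log2 −0.36), and by −log10 q its log2 was 0.11. The median rank of the 9 genes was 651 at 2 h and 396 at 6 h, so it moved opposite to the median log2. MAFK (log2 −2.15; WT 0.16) and MAFF (log2 −1.04; WT −2.37) completed the 5 calls, the MAFF summits lying 1287 bp apart and its value within 1 kb of the start being 0.063. In WT, 7 of 8 ranked AP-1 genes were at least 2-fold lower and the median log2 was −1.93.

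The wider set of immediate early genes (EGR, IER, NR4A, KLF and others) did not move as a block. Of 31, 20 were ranked, 4 at least 2-fold higher and 4 at least 2-fold lower, with a median log2 of −0.25 (WT −0.83). IER3, an inhibitor of apoptosis induced by many stimuli, headed the whole 2 h ranking with a fold of 129, against 49.3 with DMSO and 56.9 at 6 h, where it ranked 5 (log2 −2.32; WT −1.12). Its summit is shared with FLOT1. IER5L had 15.7, 20.1 and 7.53 (log2 −3.13; WT −2.1). In the other direction, beside MYC, ZFP36L1, an mRNA decay factor gene, had 17, 23.5 and 36.3 (log2 2.1; WT −0.12) and PHLDA1 24.8, 30.7 and 39.7 (log2 1.40; WT 0.71). At ZFP36L1 and PHLDA1 the 6 h value was the highest of the 3 times, but the PHLDA1 summits lay 737 bp apart, and over its primer product the fold was 24.8, 30.7 and 28.1. By pileup neither reached 2-fold (log2 0.77 and 0.35).

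Feedback inhibitors of MAPK signalling went both ways. Of 18, 12 were ranked, 4 at least 2-fold lower and 2 at least 2-fold higher, with a median log2 of −0.50 (WT −0.38). The dual-specificity phosphatase genes DUSP6, with a fold of 25.8, 75.3 and 28.1 (log2 −2.26; WT −2.70), and DUSP1, with 48.3, 77.2 and 33.7 (log2 −2.04; WT −1.20), were highest at 2 h. DUSP4, of the same family, was lowest at 2 h, with 13, 8.93 and 11.7 (log2 1.52; WT 2.56). The receptor tyrosine kinase inhibitor genes split likewise: SPRY4 had 4.10, 10.8 and 7.35 (log2 −1.11; WT −2.48) and SPRY2 9.0, 4.75 and 12.9 (log2 3.91; WT −0.01). The SPRY2 summits lay 612 bp apart, so its change compares different sites of the promoter.

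Of 12 genes for EGF receptors, their ligands and sheddases, 5 were ranked and 4 were at least 2-fold lower, HBEGF the furthest. ADAM17, the protease that sheds several of these ligands, had no DMSO region, a fold of 13.9 at 2 h and 3.18 at 6 h (log2 −3.89; WT −3.71), but within 1 kb of the start its log2 was −0.039. EGFR had 9.34, 13.8 and 4.98 (log2 −3.19) in A3B KO but 5.65, 6.26 and 8.98 in WT (log2 0.96). AREG, which encodes amphiregulin, had 13.7, 22.9 and 8.71 (log2 −2.82) in A3B KO but 14.1, 10.0 and 20.8 in WT (log2 2.72). TGFA, the fifth, had 5.42, 16.8 and 18.2 (log2 0.95; WT 1.44). Within 2 kb of the start, HBEGF and ADAM17 thus went the same way in both lines, while EGFR and AREG did not; the difference between the lines was not tested.

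NF-κB subunits and feedback genes gave 12 ranked of 22, 4 at least 2-fold lower and 1 at least 2-fold higher (median log2 −0.31; WT −0.75). BCL10, a signalling adaptor between protein kinase C and NF-κB, had a fold of 15.5, 31.9 and 11.7 (log2 −2.60; WT −0.71). The subunit genes NFKB2, with no DMSO region, 9.63 and 4.03 (log2 −2.36), and REL, with 5.07, 8.87 and 3.12 (log2 −2.27), had no WT region at 6 h; their 2 h and 6 h summits in A3B KO lay 487 and 1369 bp apart. TNFAIP3, which encodes the inhibitor A20, had no DMSO region, 8.08 and 4.88 (log2 −1.25).

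Chemokine and cytokine genes gave 11 ranked of 23, 3 called each way (median log2 −0.10; WT −0.34). CSF3, which encodes G-CSF, had 14.6, 37.1 and 11.6 (log2 −2.90; WT −3.61), and LIF, a cytokine of the IL-6 family, 4.02, 10.4 and 2.11 (log2 −3.05; WT −1.12). CXCL2, a neutrophil chemokine gene, went the other way with 15, 6.48 and 14.1 (log2 3.46). ICAM1, a leukocyte adhesion receptor gene, had 4.51, 9.54 and 4.09 (log2 −2.29; WT 1.69), and IL1RN, the IL-1 receptor antagonist gene, no DMSO region, 8.26 and 11.5 (log2 1.78; WT −2.01). Neither ICAM1 nor IL1RN kept its direction in WT, but the ICAM1 summits in A3B KO lay 545 bp apart.

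Junction genes were mostly lower at 6 h: of 21, 11 were ranked, 8 lower and 3 higher (median log2 −0.61; WT −1.13). Of the 11, 4 were at least 2-fold lower and 0 at least 2-fold higher, against 13.9% and 14% of all ranked promoters. OCLN, the tight junction protein occludin, had 3.36, 22.5 and 7.80 (log2 −3.24; WT −4.13) and PKP2, a desmosomal plakophilin, 3.80, 14 and 6.38 (log2 −2.59; WT −2.36). JUP, which encodes plakoglobin, had 3.06, 8.87 and 5.41 (log2 −1.41; WT −1.98). At all 3 the 6 h value lay between the DMSO and the 2 h values. ITGB4, the hemidesmosome integrin gene, stood opposite, with 18.3, 10.0 and 21.1 (log2 3.10; WT 1.82) at summits 791 bp apart, while LAMB3, a laminin-332 chain gene, was high at both times with 13.7, 48.3 and 38.8 (log2 0.05; WT −0.14).

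Genes for cytosolic ribosomal proteins, the parts of the ribosome itself, had the highest median of the lists with at least 8 ranked promoters. Of 79, 62 were ranked at both times, 55 ranked higher at 6 h, 36 of them at least 2-fold, and 2 ranked at least 2-fold lower. The median log2 was 1.38, and the median rank was 880.5 at 2 h and 373 at 6 h. Among those with a region at all 3 times the median rank was 222 with DMSO, 845.5 at 2 h and 368.5 at 6 h, so the 6 h ranks lay between those of the other times. In WT, 62 were ranked, 44 higher and 17 lower, 24 of them at least 2-fold higher, with a median log2 of 0.77.

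RPL15 had a fold of 75.5 with DMSO, 49.0 at 2 h and 80.7 at 6 h, where it ranked 3 of all promoters (rank 25 at 2 h, log2 3.06; WT 2.38). RPL7A, which shares its summit with MED22, had 25.4, 11.6 and 28.0 (log2 3.61; WT 1.25). RPSA had 23.8, 11 and 25.8 (log2 3.43; WT 0.93). Within 1 kb of the start the RPSA log2 was 0.51. At these 3 the 2 h fold was the lowest and the 6 h fold the highest of the 3 times. RPL30, with 22.8, 9.76 and 17.7 (log2 2.67; WT −0.60), and RPL32, with 10.2, 4.70 and 10.7 (log2 3.13; WT −1.09), ranked lower at 6 h in WT.

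The other lists of protein synthesis genes had lower medians than the ribosomal proteins. Of 36 translation factor genes, 27 were ranked, 22 higher and 5 lower at 6 h (median log2 0.37; WT 0.15). Of the 27, 4 were at least 2-fold higher and 2 at least 2-fold lower, against 14% and 13.9% of all ranked promoters. EIF1, a start codon selection factor gene, had 63.9, 80.0 and 41.6 (rank 7 to 17, log2 −1.28; WT −0.45), but ranked by pileup it was higher at 6 h (log2 0.42). Of 41 ribosome biogenesis genes, 21 were ranked, 11 higher and 10 lower, 7 at least 2-fold higher and 4 at least 2-fold lower (median log2 0.03; WT 0.19). These ranks leave out genes with a region at 1 time alone. A promoter region was held by 32 of the 41 with DMSO, 24 at 2 h and 32 at 6 h, against 7277 and 7638 of all promoters at 2 h and 6 h. Their gene bodies held 174 regions at 2 h and 312 in the longer 6 h list, with more in 32 genes and fewer in 1. NPM1, the nucleolar chaperone gene, had 21, 8.73 and 15.9 (log2 2.85; WT 1.5) and WDR12, a large subunit assembly factor gene, 7.35, 12 and 4.94 (log2 −2.77; WT −1.28). Of 21 amino acid transport and stress response genes, 11 were ranked, 4 at least 2-fold higher and 1 at least 2-fold lower (median log2 0.68; WT 0.34). HSPA5, the endoplasmic reticulum chaperone BiP, had 20.0, 7.17 and 15.4 (log2 3.45; WT 2.74), and CEBPB, a leucine zipper factor gene, 15.5, 33.9 and 11.3 (log2 −2.91; WT −0.03).

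Histone genes that are expressed in S phase gave 25 ranked of 62, 15 higher and 9 lower (median log2 0.30), while in WT 6 of 23 were higher and 17 lower (median log2 −1.0). Within 1 kb of the start, where 14 were ranked, the A3B KO histone median was −0.11. Several histone genes share a summit with a neighbour, so these counts hold fewer sites than genes. Among genes for R-loop nucleases and resolving helicases, 14 of 27 were ranked (median log2 −0.21, but 0.10 by pileup; WT −0.03). Of the 14, 2 were at least 2-fold higher and 3 at least 2-fold lower, against 14% and 13.9% of all ranked promoters. RNASEH2C, a subunit of RNase H2, which removes RNA from hybrids, had 7.42, 12.8 and 4.29 (log2 −3.26; WT −1.72), RNASEH1, of the other RNase H class, 4.69, 5.66 and 7.34 (log2 1.07; WT −0.26), and the helicase gene DDX21 27.2, 7.29 and 12.7 (log2 2.71; WT 4.83). RNASEH2A, the catalytic subunit of RNase H2, had 5.92, 8.38 and 5.33 (log2 −1.21; WT 1.04), and DHX9, a helicase that unwinds hybrids, 10.0, 8.94 and 6.18 (log2 −1.05; WT 0.11). The RNASEH2A summits lay 3150 bp apart, and by pileup DHX9 ranked higher at 6 h (log2 0.39). Among the 6 lists of housekeeping, glycolysis, proteasome, oxidative phosphorylation, p53 target and actin and focal adhesion genes, the medians lay between −0.16 and 0.21. The actin and focal adhesion median moved to 0.61 at equal list lengths.

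Genes for which the study designed DRIP primers were read at their promoters too. Of 16, 14 were ranked, 4 called each way; TFF1 and SYT8 had no promoter region at either time. PIM3, a paralog of PIM1, had 5.63, 12.9 and 4.52 (log2 −3.16, but −0.90 within 1 kb; WT −2.56), while GADD45A had 26.9, 31.7 and 23.8 (log2 −0.07; WT 0.42), its 2 h and 6 h summits 1222 bp apart. The paper presents JUNB and DUSP1 as genes that respond to PMA and GAPDH and HSPA8 as genes that do not. Its DRIP–qPCR values are set against WT with DMSO, whereas the change in rank sets 6 h against 2 h. From kinetic DRIP–seq and immunofluorescence the paper reports that A3B helps PMA-induced R-loops resolve in time. The difference between the lines was not tested here. Here GAPDH had 63.3, 33.8 and 38.2 (log2 1.10; WT 2.24), and its A3B KO call was lost when ranked by pileup. HSPA8 had 56.3, 61.5 and 39.9 (log2 −0.78; WT 0.74), less than a 2-fold change in rank in either line. The primer pairs below mark 3 sites at which both time points could be read off by position, each primer written 5′ to 3′.
DUSP1 forward: tgcccacttccatgaccat
DUSP1 reverse: ctctctcagtccaaaagcgg
FOS forward: ccatgacaggaggccga
FOS reverse: acattcccaggaagagtacg
PIM3 forward: aaatctgcttgtggacctgc
PIM3 reverse: aacagtcatcagcccctcc

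The DUSP1 product (chr5:172770934-172771099, untranslated exon) was overlapped by a region of fold 7.65 with DMSO, 44.3 at 2 h and 18.6 at 6 h in A3B KO, and of 10.8, 10.2 and 10.5 in WT. The FOS product (chr14:75280076-75280162, coding exon) was overlapped with a fold of 4.30 with DMSO and 24.5 at 2 h and by no region at 6 h, while WT had 6.95, 21.7 and 8.16. The PIM3 product (chr22:49961717-49961903, coding exon) had 5.63, 12.9 and 4.52, and in WT 11.7, 9.5 and 5.12. All 3 sites were highest at 2 h in A3B KO, and FOS alone of the 3 was highest at 2 h in WT. The JUNB primer product (chr19:12793074-12793201) was overlapped by no region in any of the 6 lists, although the JUNB summit in the coding exon was among the highest at 2 h.

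Promoters with a region at 1 time alone were weaker. At 2 h alone, IL4R, the IL-4 receptor gene, reached a fold of 17.1 (DMSO 3.90), FMNL1, a formin gene, 15.6 and TIMP1, a metalloprotease inhibitor gene, 14.2, the last 2 with no DMSO region. In WT the same 3 had 13.2, 12.8 and 10.0 at 2 h, and at 6 h IL4R 4.16 and the others no region. At 6 h alone the highest were CTXND2 (13.8), ASAH2 (13.3) and TCTN1 (12.1), with no DMSO region. Of these, CTXND2 was found at 6 h alone in WT as well (16), while ASAH2 had WT regions at all 3 times (10.4, 13.6 and 15.4).

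Away from promoters, shared 2 h regions were ranked among all 86347 such regions. Only the most 5′ start of each gene counted as a promoter, so a region in a gene body may lie near another start of that gene. The largest loss was in the body of SOD2, the mitochondrial superoxide dismutase gene and an NF-κB target, at chr6:159692442-159692941, with a fold of 46.2 at 2 h and 7.68 at 6 h (rank 61 to 14654, log2 −7.91), and another SOD2 region went from 18.8 to 5.13. Regions in the bodies of BHLHE40, a circadian repressor gene (chr3:4982949-4983448, 19.2 to 3.18, log2 −7.75), and ZC3H12A, which encodes the RNase regnase-1 (chr1:37479866-37480365, 19.3 to 4.68, log2 −7.26), followed a similar course. The second largest loss lay inside HOOK2 but just beyond the 3′ end of JUNB (chr19:12793641-12794140, 24.1 to 4.55, log2 −7.82). Its class, within 2 kb of a protein-coding gene end, does not mean the end of HOOK2.

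The largest gain was at the end of MYC, from a fold of 6.61 to 40.3 (rank 24049 to 70, log2 8.42). Regions in JMY, a p53 cofactor and actin nucleator gene (chr5:79278103-79278602, 3.98 to 15, log2 7.06), ANTXR2, an anthrax toxin receptor gene (chr4:80072132-80072631, 4.18 to 14.6, log2 6.84), and CAV2, a caveolin gene (chr7:116500290-116500789, 3.32 to 13.6, log2 6.74), came next among protein-coding genes.

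Of the 120428 regions at 2 h, 86347 (71.7%, interval 71.4 to 72.0%) were overlapped by a region at 6 h and 34081 were not. Of the 169126 regions at 6 h, 78485 (46.4%, 46.2 to 46.6%) had no 2 h region. With the 6 h list cut to the length of the 2 h list by −log10 q, the shares were 60.6% and 40.3%. The WT pair gave 71.2% and 47.6%. The share kept at 6 h went from 54.5% in the lowest decile of the 2 h list by fold enrichment to 86.0% in the highest, and 91.9% of 4315 regions with a fold of at least 10 were kept. Of the kept 2 h regions 63.4% also had a DMSO region and of the lost ones 22.1%; among 6 h regions the shares were 63.5% for shared and 24.5% for new ones.

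**Figure D3:**
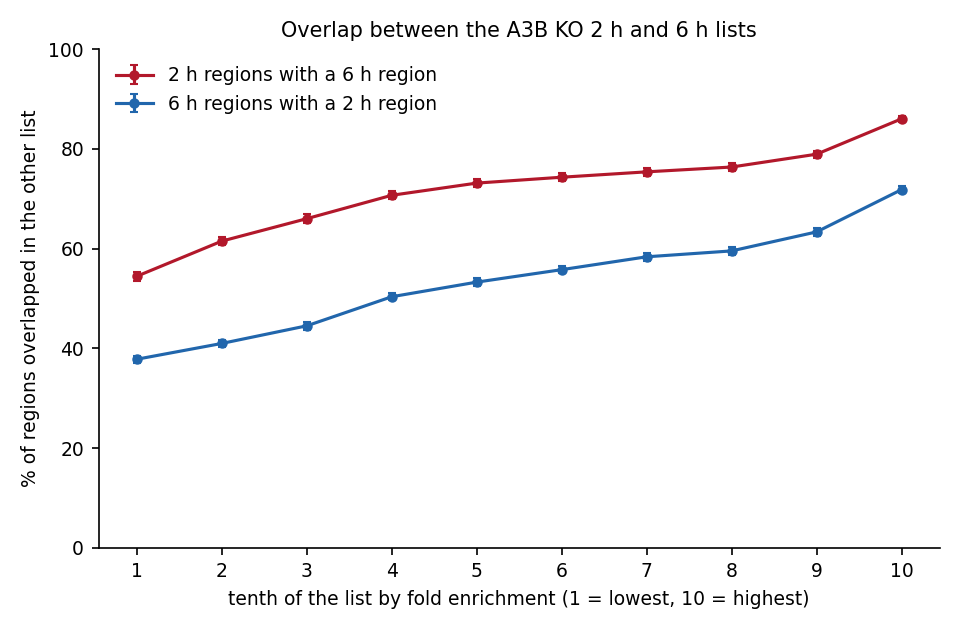
Share of regions overlapped in the other A3B KO list (percent) by decile of the list in fold enrichment, lowest to highest; bars are 95% Wilson intervals, which cover counting error alone. Both shares are higher at higher fold enrichment, from 54.5% to 86.0% for 2 h regions and from 37.8% to 71.8% for 6 h regions.

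By position, 7.93% of 2 h regions and 6.08% of 6 h regions (6.28% at equal lengths) lay within 2 kb of a protein-coding start, and 48.4% and 48.8% further inside protein-coding genes. New regions made up 30.7% of 6 h regions near starts, 47.3% of those in gene bodies and 52.0% of those in long noncoding RNA genes. Near starts, new 6 h regions were poorer in G and C (median 49.0%, middle 50% of regions 44 to 56.8%) than shared ones (53.4%, 47.4 to 63.4%), and held a mean of 16.4 CpG against 22.7. Lost 2 h regions near starts had a median of 56.8% and kept ones 54.0%. Among ranked promoters the 2 h summits had a median GC content of 62.2% where the rank was at least 2-fold lower at 6 h, 53% where it was at least 2-fold higher and 54.8% in all, with a median of 32, 19 and 19 CpG. The median skew of G over C on the sense strand, (G − C)/(G + C), was 0.06 in both called sets and 0.05 in all.

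The AP-1 motif TGANTCA, read on both strands of the 500 bp around the 2 h summit, was found in 7.26% of promoters lower at 6 h, 9.30% of those higher and 8.23% of all ranked. The E-box CACGTG was found in 5.29%, 10.4% and 6.72% in the same order. At the 6 h summits the E-box was found in 4.92%, 9.42% and 7.22%. These are matches of letters at sites that differ in GC content, and no factor was measured.

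Along gene bodies, 15492 protein-coding genes held a region at either time; 210 (1.36%) held at least 5 fewer regions at 6 h and 2294 (14.8%) at least 5 more. This split followed the longer 6 h list: at equal list lengths 721 (4.65%) held at least 5 fewer and 511 (3.3%) at least 5 more. The genes with fewer were shorter than those with more, with a median length of 43346 bp against 133288 bp, and 39792 bp over all. At equal list lengths the medians were 63275 bp and 211246 bp, so both sets were longer than genes over all. In WT, 118 of the 210 also held fewer regions at 6 h and 74 more, against 2455 and 9583 of all 15492 genes. Of the 2294, 1941 held more and 229 fewer in WT.

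KDM6B, a histone H3K27 demethylase gene, held 6 regions with DMSO, 18 at 2 h and 2 at 6 h in A3B KO (0 at equal lengths), and 1, 15 and 3 in WT. CD9 held 1, 20 and 6 in A3B KO (4 at equal lengths) and 3, 13 and 4 in WT, and its 2 h regions reached 35.3 kb into a gene of 38.6 kb. JUP went from 28 to 12 (WT 19 to 8), NDRG1, a stress-induced gene, from 31 to 11 (WT 23 to 5) and AGO2, the small RNA-guided nuclease gene, from 34 to 10 (WT 19 to 11). KDM6B, CD9, JUP, NDRG1 and AGO2 thus held fewer regions at 6 h in both lines. ZNF600, a zinc finger gene, did not: it went from 23 to 6 in A3B KO and from 4 to 31 in WT.

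Among genes with more, STX8, a syntaxin gene, held 16 regions with DMSO, 17 at 2 h and 54 at 6 h in A3B KO (37 at equal lengths), and 29 at 2 h and 43 at 6 h in WT. Its regions had a median distance from the start of 218 kb at both times in A3B KO, in a gene of 326 kb. PITPNC1, a phosphatidylinositol transfer protein gene, went from 36 regions at 2 h to 77 at 6 h (52 at equal lengths), with a median distance of 109 and 202 kb, while in WT it went from 52 to 70 with 184 and 185 kb. AKAP13, an A-kinase anchor protein gene, went from 37 to 77 (47 at equal lengths; WT 34 to 55). In A3B KO all 3 genes held more regions at 6 h also at equal list lengths. All 3 held more at 6 h in WT too, but no equal-length cut was made there. The whole WT list held 111771 regions at 2 h and 165877 at 6 h, so the WT counts may follow its length.

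**Figure D4:**
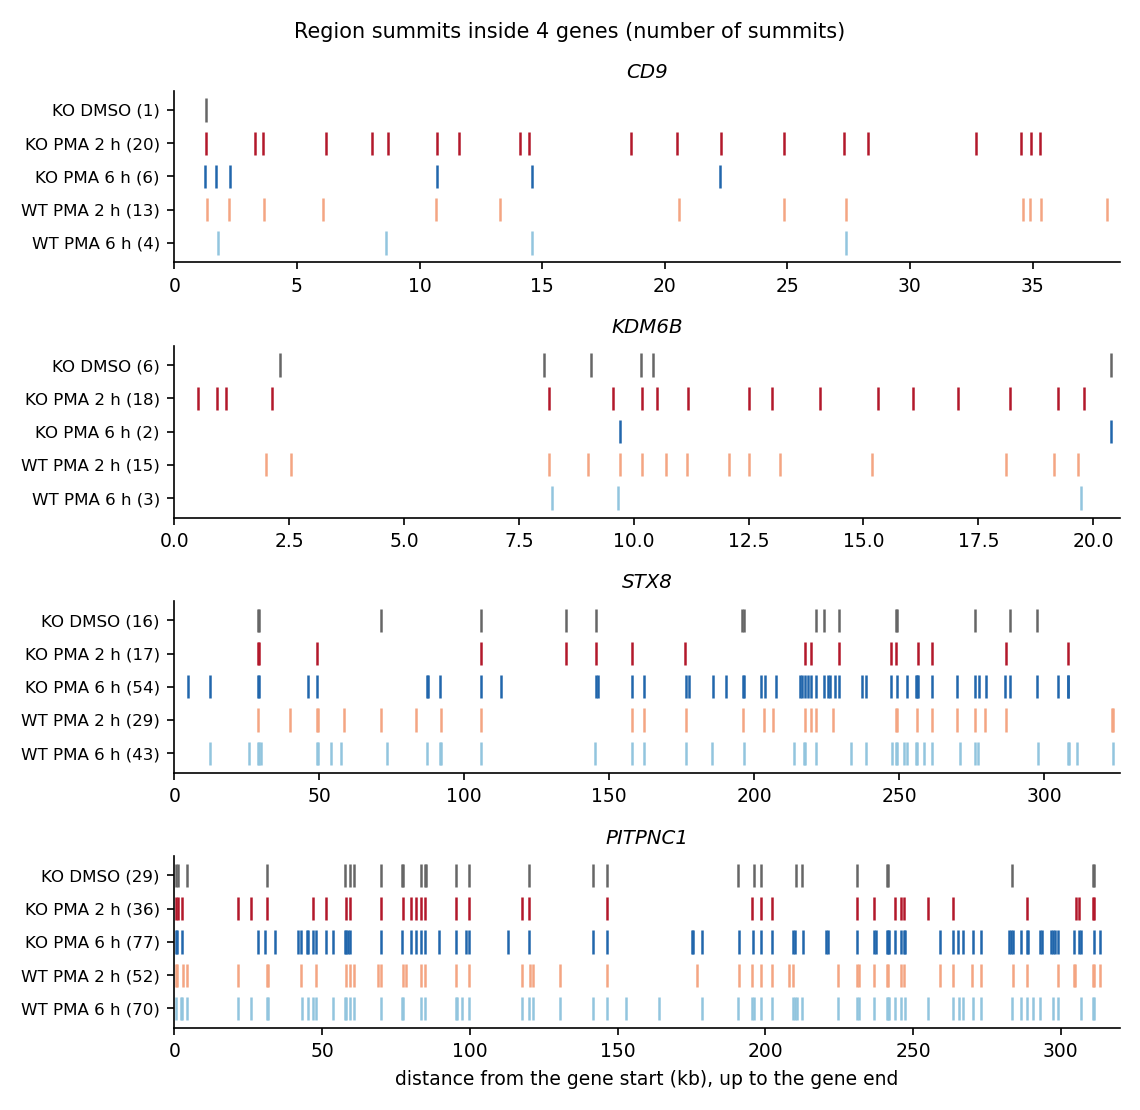
Region summits (ticks) along CD9, KDM6B, STX8 and PITPNC1 by distance from the gene start in kb, in A3B KO with DMSO and after PMA for 2 h and 6 h and in WT after PMA, with the number of summits in brackets. CD9 and KDM6B are filled at 2 h and sparse at 6 h, and STX8 is denser at 6 h (54 summits against 17 at 2 h in A3B KO).

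Over the 1497 protein-coding genes of at least 200 kb, regions were counted by distance from the start. The 6 h list held 1.48 times as many regions as the 2 h list in the first 25 kb and 1.58 to 1.65 times as many in each of 5 bins further in. New regions made up 48.3% of 6 h regions in the first 25 kb (46.3 to 50.3%) and 55.8% beyond 200 kb (54.8 to 56.7%), and lost regions 28.7% and 32.9% of 2 h regions. Added regions were thus spread along long genes, and the share of new ones was higher far from the start.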

How the data were processed

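DRIP–seq lists of A3B KO cells after PMA for 2 h and 6 h were compared, with the A3B KO DMSO and 3 WT lists as outside values. The authors trimmed reads with cutadapt 1.13, aligned them to hg38 with STAR 2.6.1d, used SAMtools 1.3.1 for filtering and Picard for duplicates, and called peaks with MACS2 at a q of 0.01 (the submitters' notes name 2.2.6, not the version in the methods). In the deposited lists, pileup is a signal counted in fragments at each summit, and no scaling between libraries is stated. The authors' −log10 p and −log10 q set the immunoprecipitation against its own input. The deposited fold enrichment is a ratio, of summit over local background. Reads per library are unknown. Whether starts count from 0 or 1 is not stated and moves a region by 1 bp.

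Chromosomes 1 to 22 and X and GENCODE 44 genes were used. Overlap meant at least 1 bp; motifs and windows were read from hg38. Members, gene lists and rules were chosen with earlier results of these data known. Named genes were those with a DRIP primer pair, the 12 largest gains and losses in promoter rank within rank 2000 at either time, the 6 strongest found at 1 time alone, per gene list up to 6 members by size of change, the 8 largest gains and losses in regions per gene body and the 6 largest in shared regions outside promoters; not all of these are reported here. Primer pairs were searched for a product of up to 1000 bp. Alternatives were ranks by pileup or −log10 q, a 1 kb window, −log10 q of at least 5, equal list lengths and an overlap of 250 bp. Inputs and ChIP–seq lists were not used here. Steps were tested on simulated lists. The tools were pysam 0.24.0, pandas 2.3.3, matplotlib 3.10.9, Python 3.11.15, scipy 1.17.1 and numpy 2.4.6.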

Additional observations from a re-analysis of the deposited data

Results flagged for a closer look

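At 5 promoters named above, the A3B KO and the WT pair of libraries differed in direction by at least 2-fold in rank each. The difference was not tested at any of them, since each line has 1 library per time. AREG had a log2 rank ratio of −2.82 in A3B KO and 2.72 in WT, and ICAM1 −2.29 and 1.69, its A3B KO summits lying 545 bp apart. RNASEH2A, the catalytic subunit gene of RNase H2, had −1.21 in A3B KO, at summits 3150 bp apart, and 1.04 in WT. IL1RN had 1.78 in A3B KO and −2.01 in WT, and RPL32 3.13 and −1.09.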

How the results depend on the processing

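No paired analysis was possible because each condition has 1 library. At −log10 q of at least 5 the share of 6 h regions without a 2 h region was 49.5%, and 117 genes held at least 5 fewer regions in the body at 6 h. At equal list lengths 60.6% of 2 h regions were overlapped at 6 h, 40.3% of 6 h regions had no 2 h region, and 721 genes held at least 5 fewer and 511 at least 5 more regions, which turns the balance of the split; the cut itself removes 6 h regions. An overlap of at least 250 bp gave 66.1% and 52.7%. Within 1 kb of the start, where 3795 promoters were ranked, 516 were at least 2-fold higher and 512 at least 2-fold lower. The median of the ribosomal protein list was 1.19 by pileup, 1.31 by −log10 q, 1.39 within 1 kb, 1.38 at −log10 q of at least 5 and 1.37 at equal lengths. The AP-1 median was −1.16, −1.25, −0.67, −1.02 and −1.05 in the same order, and that of the wider immediate early list −0.38, −0.33, −0.32, −0.21 and −0.21. Of the named promoters with a change of at least 2-fold, 61 of 63 kept their direction by pileup, 62 of 63 by −log10 q and 48 of 50 within 1 kb. A change of at least 2-fold was kept by 53 of 63, 56 of 63 and 41 of 50. Calls were lost within 1 kb at ADAM17 (−0.039), PIM3 (−0.90), RPSA (0.51) and THBS1 (0.97), among others, and by pileup at DUSP1 (−0.51), IL1RN (0.66), TNFAIP3 (−0.55) and GAPDH (0.05); ITPR3 went to −1.34 within 1 kb. Among list medians near 0, that of the histone genes was −0.11 and that of the R-loop nuclease and helicase genes 0.08 within 1 kb, and that of the ribosome biogenesis genes −0.26 at −log10 q of at least 5. The actin and focal adhesion median was 0.70 at −log10 q of at least 5 and 0.61 at equal lengths. The glycolysis median was 0.32 at equal lengths and −0.20 by pileup. DHX9 turned to 0.39 and EIF1 to 0.42 by pileup, and MAFF to 0.063 and RNASEH2A to 0.34 within 1 kb; the cause was not tested. By −log10 q EIF1 was level at 0. Without reads per library, a region missing from a list may be too weak to be called at that depth.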
